A study of Mus musculus with 109 samples.

Results

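The genes described here are P2ry12, P2ry13, Gpr34, Cx3cr1, Csf1r, Siglech, Tmem119, Olfml3 and Sall1, a set of 9 markers of homeostatic microglia. They were chosen by symbol, with no measured value in the rule, from the 37315 genes counted in whole mouse retinas, and each symbol matched 1 Ensembl identifier. All 9 passed the filter on low counts at day 2, where 19548 genes were tested. RNA was sequenced from 109 retinas of 64 mice aged 2 to 4 months, of which 45 gave both eyes. Eyes of C57BL/6J (WT) mice received a single intravitreal injection of TNF, IL1A or both cytokines together (IL1A+TNF), and PBS was injected as the control, in most mice into the opposite eye. Batch 1 held 31 PBS, 8 TNF, 9 IL1A and 10 IL1A+TNF retinas taken 2 days after injection, 7 PBS and 6 TNF retinas of day 14, and 6 PBS and 9 TNF retinas of day 35. Batch 2 held day 2 retinas only, with 5 PBS and 6 IL1A+TNF retinas of WT mice and 6 PBS and 6 IL1A+TNF retinas of Sarm1-/- mice, labelled as Sarm1 knockout. Every control eye was itself injected, and no uninjected retina was analysed here.

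Microglia are the resident macrophages of the retina and brain, and in the healthy tissue they survey their surroundings with fine, moving processes. In that state they express a set of genes that separates them from blood monocytes and from macrophages at tissue borders, and several of these genes are commonly lost when microglia become reactive. The set holds receptors by which microglia sense their neighbours (P2ry12, P2ry13, Gpr34, Cx3cr1, Csf1r), surface proteins used mainly as markers (Siglech, Tmem119), a secreted glycoprotein (Olfml3) and a transcription factor that maintains microglial identity (Sall1). Cx3cr1 and Csf1r are also expressed by blood monocytes, Siglech also marks plasmacytoid dendritic cells, and Olfml3 and Sall1 are also made by cells that are not of the myeloid lineage. In RNA of whole retinas, fewer cells of a type and less RNA per cell cannot be told apart.

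Total counts ranged from 30014757 to 79064488 per retina (median 39374202). The lowest count of any of the 9 genes in any retina was 4, for Siglech in a Sarm1-/- IL1A+TNF retina, and no count was 0. Levels are given in CPM, counts scaled to library size, after TMM scaling over all 109 retinas. As a check of the genotype, Sarm1 lay between 37.1 and 52.9 CPM in Sarm1-/- PBS retinas and between 105 and 124 CPM in WT PBS retinas of batch 2, lower with no overlap but not absent. In 12 of the 109 retinas the summed level of 5 lens genes (Bfsp1, Bfsp2, Lim2, Mip, Gja3) was between 29.8 and 256 CPM, over 10 times the median of all retinas (2.44 CPM), while the other 97 retinas were at most at 9.37 CPM. These 12 retinas fell in 9 of the 12 groups. In them Olfml3 was above the median of its group in 11 of 12 retinas (median difference 1.27 on the log2 scale) and Sall1 in 10 of 12 (median difference 0.71), whereas the median differences of the other 7 genes lay between -0.17 and 0.19. Olfml3 values in these retinas reached 157 CPM, against at most 31.5 CPM in the other 97. The part of lens RNA in the results for Olfml3 and Sall1 was not tested beyond leaving these retinas out.

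**Figure D1:**
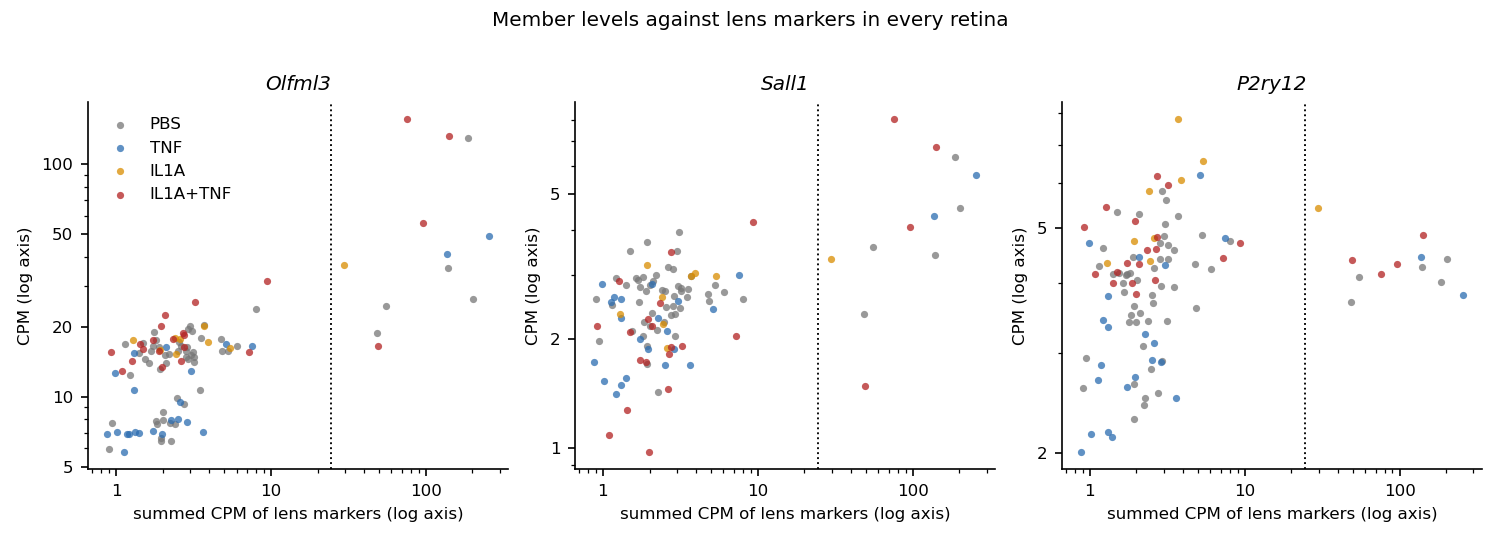
Level of Olfml3, Sall1 and P2ry12 (CPM, log axis) against the summed level of 5 lens genes (CPM, log axis) in each of 109 retinas, coloured by injection, with the dotted line at 10 times the median lens level. To the right of the line lie 12 retinas, which include 9 of the 10 highest Olfml3 values and 7 of the 10 highest Sall1 values but none of the 10 highest P2ry12 values.

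P2ry12 and P2ry13 are neighbours on the minus strand of chromosome 3 (mm10), with P2ry12 at chr3:59216272-59262871 and P2ry13 at chr3:59207892-59210882, and Siglech lies on the plus strand of chromosome 7 at chr7:55768178-55778925. After IL1A+TNF, P2ry13 had the highest and Siglech the lowest fold change of the 9 genes while P2ry12, the neighbour of P2ry13, did not pass the test, so the 250 bases before their RefSeq start sites (GRCm38.p6) are given here, 5' to 3' on the strand of the gene, at chr3:59262986-59263235 for P2ry12, chr3:59210883-59211132 for P2ry13 and chr7:55767934-55768183 for Siglech. Capitals mark the match to the NF-kB motif (GGGA, any 4 bases, CC), which was found in the upstream sequence of P2ry12 alone among the 3. That match is on the strand opposite to the gene, so the sequence shows its reverse complement, GGAAGTTCCC.
P2ry12: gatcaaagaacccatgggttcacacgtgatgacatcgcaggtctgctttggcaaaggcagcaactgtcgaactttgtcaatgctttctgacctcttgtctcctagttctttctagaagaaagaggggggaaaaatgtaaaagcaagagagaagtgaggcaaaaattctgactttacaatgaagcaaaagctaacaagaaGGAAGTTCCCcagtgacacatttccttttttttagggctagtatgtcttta
P2ry13: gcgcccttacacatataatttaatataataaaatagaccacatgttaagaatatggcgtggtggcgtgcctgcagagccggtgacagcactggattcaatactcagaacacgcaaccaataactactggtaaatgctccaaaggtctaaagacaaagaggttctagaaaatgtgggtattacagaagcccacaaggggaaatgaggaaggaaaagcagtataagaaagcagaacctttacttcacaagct
Siglech: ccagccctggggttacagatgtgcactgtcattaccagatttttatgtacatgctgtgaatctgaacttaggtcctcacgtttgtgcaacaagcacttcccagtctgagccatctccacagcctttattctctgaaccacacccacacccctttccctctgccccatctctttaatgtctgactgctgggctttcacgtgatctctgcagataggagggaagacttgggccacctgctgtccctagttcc
RefSeq promoters, each from 250 bases before to 50 bases after a start site, were matched for 6 of the 9 genes, with 8 start sites in all, and not for Csf1r, Tmem119 and Gpr34. They were searched on both strands for NF-kB, for a PU.1 motif (GAGGAAGT), an IRF motif (GAAA, any 2 bases, GAAA) and a SMAD motif (CAGAC), and no match of one motif overlapped that of another. NF-kB letters were found at positions -51 to -42 of P2ry12 and at 25 to 34 of the second start site of Sall1, while 20.7% of all 32851 promoters hold such a match. SMAD letters were found once in P2ry12, 3 times in Siglech, 2 times in Cx3cr1 and once at the first start site of Sall1, while 49.6% of all promoters hold them. Those of P2ry12, Siglech and Cx3cr1 were on the strand opposite to the gene and read GTCTG on its own strand. PU.1 letters, present in 3.2% of all promoters, and IRF letters, present in 3.44%, were found in none of the 8.

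The other members lie at chrX:13632089-13640858 (Gpr34), chr9:119901616-120069879 (Cx3cr1), chr18:61100598-61132149 (Csf1r), chr5:113793729-113800516 (Tmem119), chr3:103722222-103738001 (Olfml3) and chr8:89027235-89044162 (Sall1) of mm10. In WT PBS retinas of day 2, levels per kb of exon ordered the genes from Csf1r (4.61 ± 0.848 CPM per kb, SD, n = 31) through Olfml3 (2.79 ± 0.753) and Cx3cr1 (2.61 ± 0.386) to P2ry12 (1.70 ± 0.264), Gpr34 (1.52 ± 0.319), Tmem119 (1.47 ± 0.306), P2ry13 (0.780 ± 0.198), Siglech (0.758 ± 0.167) and Sall1 (0.541 ± 0.105). Csf1r stood apart from the next gene by more than their SDs, as did Cx3cr1 from P2ry12 and Tmem119 from P2ry13. Olfml3 and Cx3cr1 overlapped within their SDs, as did P2ry12, Gpr34 and Tmem119 among themselves, and P2ry13, Siglech and Sall1. Across the same 31 retinas, Cx3cr1 and Csf1r had the highest correlation of any pair of members (Pearson r = 0.80), and Siglech correlated with neither (r = 0.05 and 0.03). The gene most like Csf1r was Lyz2 (r = 0.91), followed by Ctss (0.90) and Tyrobp (0.90). For Cx3cr1 the most similar genes were Ccr2 (r = 0.81), Lyz2 (0.81) and Csf1r. Olfml3 was most like Nid1 (r = 0.79), Lacc1 (0.77) and the small heat shock protein gene Cryab (0.77), and its correlation with the summed lens genes was 0.72. The closest genes to P2ry13 were Lyn (r = 0.77), Dennd1c (0.76) and Sirpb1b (0.75). P2ry12 was closest to Gulp1 (r = 0.73), Gm10735 (0.73) and Sh3bgrl (0.72), Gpr34 to Oas1a (0.70), Tor3a (0.69) and Trem2 (0.64), and Tmem119 to S100a1 (0.76), Rhoc (0.76) and Cd81 (0.76). Siglech was closest to Ddx25 (r = 0.75), Car2 (0.75) and Sept6 (0.72), and Sall1 to Mccc1os (0.69), Esrp1 (0.66) and Prox1os (0.59). These correlations are over 31 PBS retinas that share tissue, batch and day and include 3 of the retinas with lens genes, and they are given as a description.

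**Figure D2:**
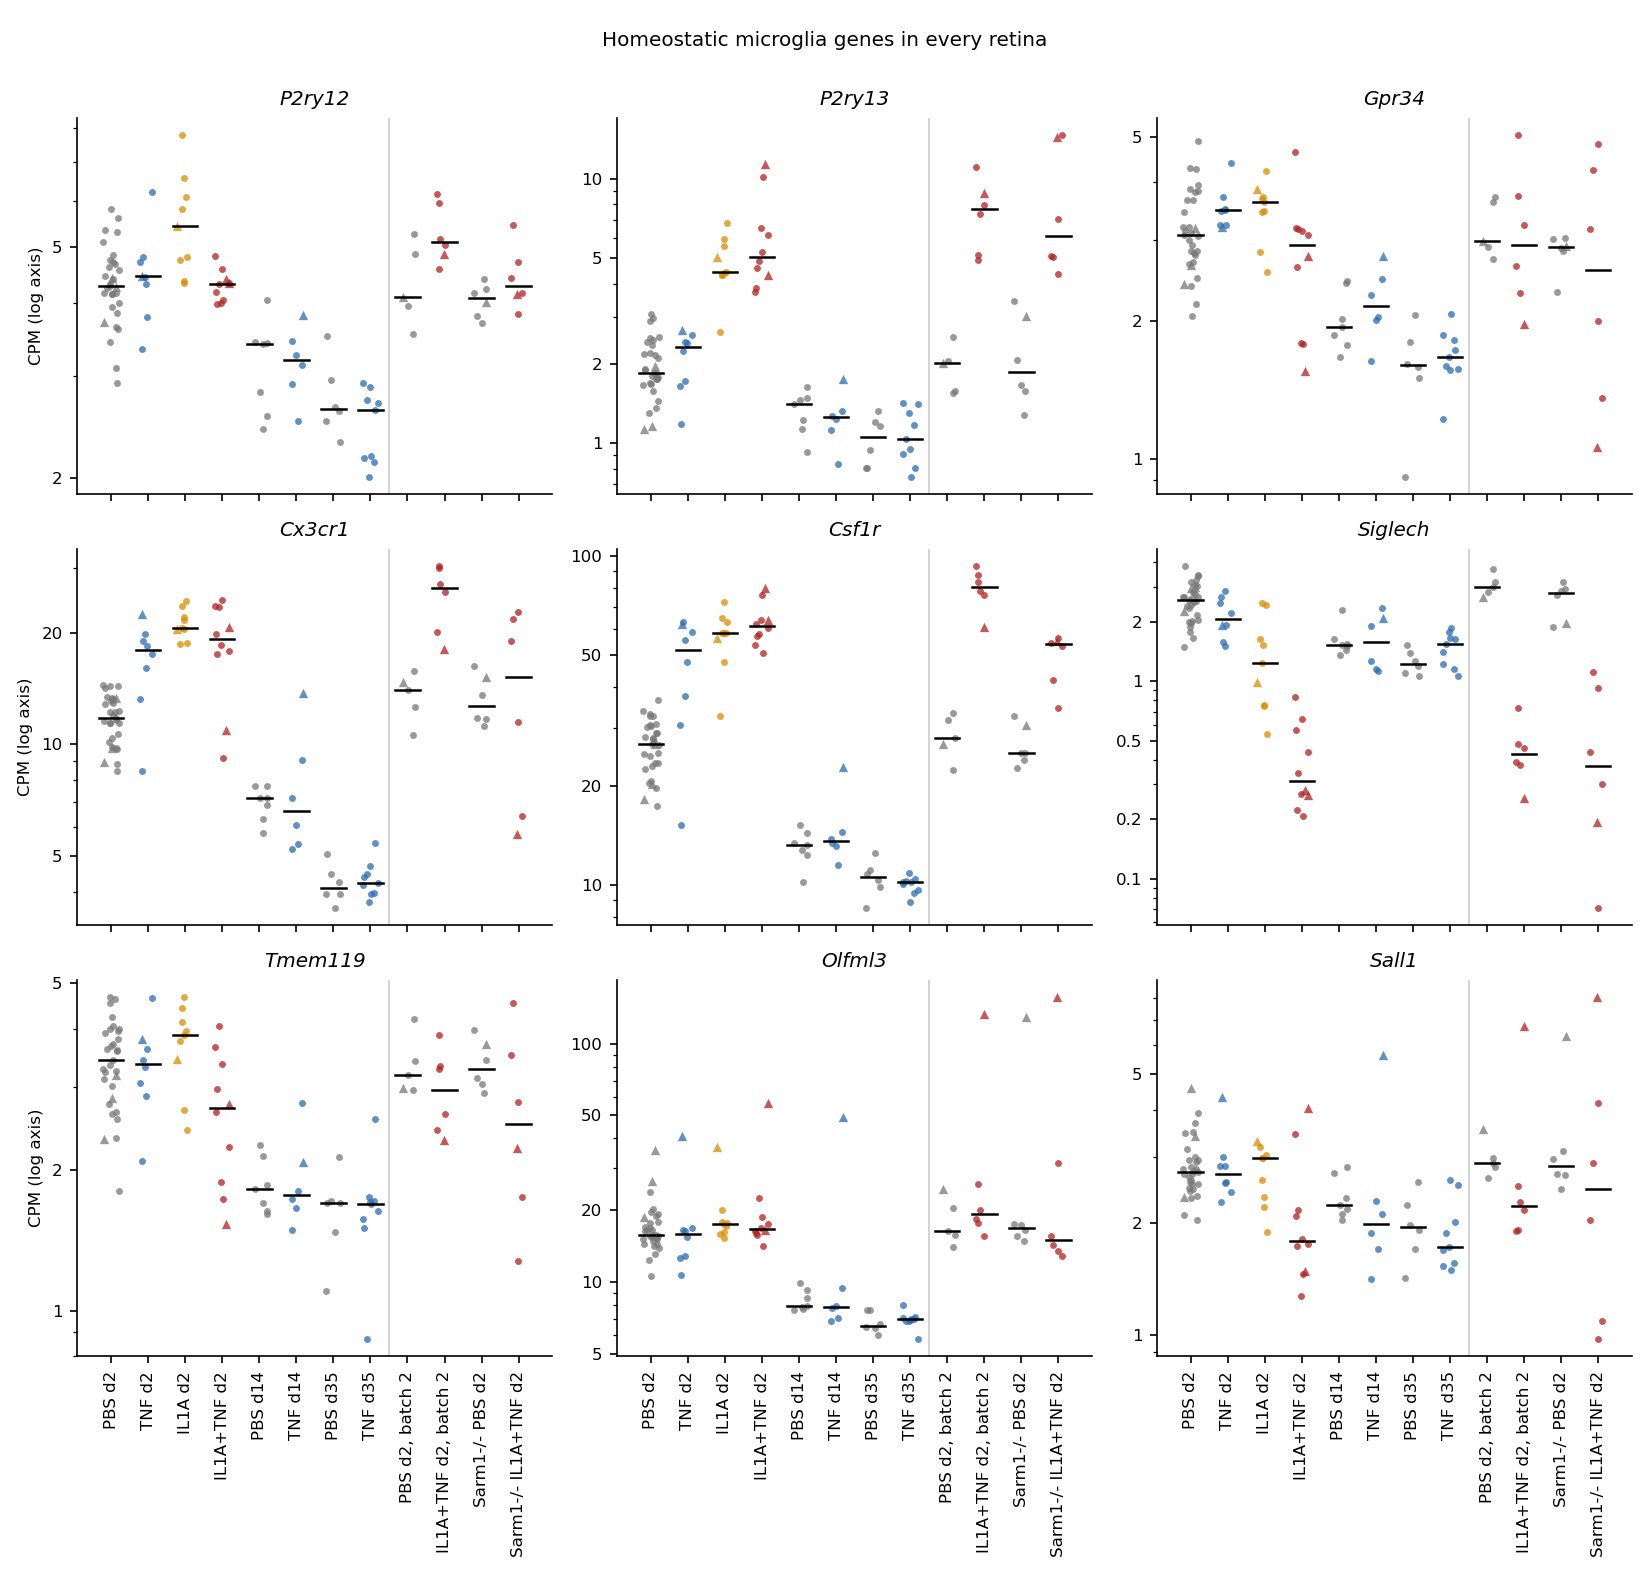
Level of each of the 9 genes (CPM, log axis) in every retina, by group, with the median of the group as a black bar; groups right of the grey line are batch 2, and triangles are the 12 retinas with lens genes. At day 2, IL1A+TNF retinas (red) lie above PBS retinas (grey) for P2ry13 and Csf1r and below them for Siglech, without overlap in batch 1. The medians of day 14 and day 35 groups lie below that of day 2 PBS retinas, with overlap of single retinas for most genes.

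At day 2 after injection of IL1A+TNF the 9 genes split: P2ry13, Csf1r and Cx3cr1 were higher than in PBS retinas, Siglech, Sall1 and Tmem119 were lower, and P2ry12, Gpr34 and Olfml3 did not pass the test. A gene is called higher or lower at an FDR (Benjamini-Hochberg adjusted p over all genes tested, limma on voom weights with mouse as a random block) under 0.05. The 6 of 9 called after IL1A+TNF compare with 50.4% of all genes tested. After IL1A alone 5 of 9 were called, 4 higher (P2ry12, P2ry13, Cx3cr1, Csf1r) and 1 lower (Siglech), against 21.4% of all genes. After TNF alone 2 of 9 were called, Csf1r and Cx3cr1, both higher, against 0.655% of all genes. The median log2 fold change of the 9 was 0.00 after IL1A+TNF, 0.17 after IL1A and 0.05 after TNF, while the medians of all genes were -0.02, -0.01 and 0.00. The 3 comparisons share the same 31 PBS retinas.

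P2ry12 and P2ry13 both encode receptors for ADP, and P2RY12 directs microglial processes towards sites where cells release nucleotides. P2ry12 lay between 2.91 and 5.81 CPM in PBS retinas (median 4.28), between 3.34 and 6.20 CPM after TNF (median 4.45), between 4.33 and 7.80 CPM after IL1A (median 5.42) and between 3.99 and 4.82 CPM after IL1A+TNF (median 4.32). The IL1A+TNF retinas thus lay inside the PBS range, and 3 of 9 IL1A retinas lay above it. The log2 fold change against PBS was 0.00 ± 0.08 (SE; 95% CI -0.16 to 0.16; FDR = 0.986) for IL1A+TNF, 0.35 ± 0.08 (FDR = 6.4e-04) for IL1A and 0.05 ± 0.09 (FDR = 0.953) for TNF. P2ry13 lay between 1.13 and 3.07 CPM in PBS retinas (median 1.84), between 1.19 and 2.68 CPM after TNF (median 2.31), between 2.64 and 6.81 CPM after IL1A (median 4.43) and between 3.74 and 11.3 CPM after IL1A+TNF (median 5.07). All 10 IL1A+TNF retinas and 8 of 9 IL1A retinas were above the highest PBS retina. P2ry13 was higher by 1.53 ± 0.13 on the log2 scale after IL1A+TNF (FDR = 8.2e-15) and by 1.31 ± 0.14 after IL1A (FDR = 8.4e-11), and its difference after TNF was 0.11 ± 0.19 (FDR = 0.946). Within a retina, the log2 ratio of P2ry13 to P2ry12 was between -1.88 and -0.57 in PBS retinas and between -0.36 and 1.36 in IL1A+TNF retinas, with no overlap. Med12l overlaps both genes on the other strand, sharing 9 exonic bases with P2ry12 and 0 with P2ry13, and the strand setting of the counting is not given in the sources used here.

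Gpr34 encodes a receptor for lysophosphatidylserine, a lipid exposed by damaged cells, and Cask overlaps it on the other strand with 0 exonic bases shared. It lay between 2.05 and 4.91 CPM in PBS retinas (median 3.07), between 3.20 and 4.40 CPM after TNF (median 3.47), between 2.55 and 4.23 CPM after IL1A (median 3.62) and between 1.56 and 4.64 CPM after IL1A+TNF (median 2.91). TNF and IL1A retinas stayed within the PBS range, while 3 of 10 IL1A+TNF retinas lay below it. No comparison with PBS passed the test, with log2 fold changes of -0.23 ± 0.11 for IL1A+TNF (95% CI -0.46 to 0.00; FDR = 0.0928), 0.16 ± 0.11 for IL1A (FDR = 0.339) and 0.18 ± 0.12 for TNF (FDR = 0.796). Without mouse 60780 Gpr34 was lower after IL1A+TNF (-0.31, FDR = 0.0192).

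Csf1r encodes the receptor for CSF1 and IL34, on which microglia depend for survival, and Cx3cr1 encodes the receptor for the neuronal chemokine fractalkine. Csf1r lay between 17.4 and 36.6 CPM in PBS retinas (median 26.9), between 15.3 and 63.2 CPM after TNF (median 51.7), between 32.8 and 72.5 CPM after IL1A (median 58.3) and between 50.8 and 80.2 CPM after IL1A+TNF (median 61.3). Groups did not overlap for IL1A+TNF, 8 of 9 IL1A retinas and 6 of 8 TNF retinas were above every PBS retina, and 1 TNF retina (15.3 CPM) was below every PBS retina. Csf1r was higher by 1.24 ± 0.12 on the log2 scale after IL1A+TNF (FDR = 5.9e-13), by 1.11 ± 0.13 after IL1A (FDR = 4.5e-10) and by 0.71 ± 0.14 after TNF (FDR = 0.00355). Hmgxb3 overlaps Csf1r on the other strand, with 873 exonic bases shared. Cx3cr1 lay between 8.48 and 14.4 CPM in PBS retinas (median 11.8), between 8.47 and 22.5 CPM after TNF (median 18.0), between 18.7 and 24.3 CPM after IL1A (median 20.6) and between 9.19 and 24.6 CPM after IL1A+TNF (median 19.2). The IL1A group did not overlap with PBS, whereas 2 of 10 IL1A+TNF retinas and 1 of 8 TNF retinas lay below the PBS mean. Cx3cr1 was higher by 0.86 ± 0.10 after IL1A (FDR = 2.0e-09), by 0.65 ± 0.10 after IL1A+TNF (FDR = 3.2e-07) and by 0.50 ± 0.12 after TNF (FDR = 0.0179).

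Both calls after TNF were lost with mouse as a fixed factor over the 8 mice with a TNF and a PBS eye (Csf1r 0.81, FDR = 0.408; Cx3cr1 0.53, FDR = 0.426) and without the retinas with lens genes (Csf1r 0.60, FDR = 0.106; Cx3cr1 0.42, FDR = 0.209), where 9 genes in all were called. Leaving out TNF mouse 60585 also ended both calls, and leaving out mouse 59733, 59833, 60033 or 60213 ended that of Cx3cr1. The TNF retina of mouse 60584 was the lowest of the 8 for 7 of the 9 genes, all but Gpr34 and Siglech.

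Siglech encodes a sialic acid-binding lectin and showed the greatest change of the 9 genes after IL1A+TNF. It lay between 1.49 and 3.84 CPM in PBS retinas (median 2.58), between 1.51 and 2.86 CPM after TNF (median 2.07), between 0.542 and 2.48 CPM after IL1A (median 1.24) and between 0.208 and 0.827 CPM after IL1A+TNF (median 0.311). All 10 IL1A+TNF retinas and 5 of 9 IL1A retinas lay below the lowest PBS retina, and the TNF retinas lay within the PBS range. Siglech was lower by 2.72 on the log2 scale after IL1A+TNF (log2 fold change -2.72 ± 0.24; 95% CI -3.20 to -2.24; FDR = 1.6e-14) and changed by -0.99 ± 0.17 after IL1A (FDR = 1.0e-05). Its log2 fold change after TNF was -0.28 ± 0.16 (FDR = 0.738). With mouse as a fixed factor the value for IL1A was -0.74 (FDR = 0.279, 7 mice). Counts behind these levels were between 9 and 36 in IL1A+TNF retinas and between 54 and 162 in PBS retinas. Of 4 other genes of plasmacytoid dendritic cells (Ccr9, Ly6d, Klk1, Cox6a2), only Ccr9, a chemokine receptor, passed the filter and was lower after IL1A+TNF (-0.50 ± 0.18, FDR = 0.0148), and the summed level of the 4 ranged from 4.05 to 13.6 CPM in PBS and from 2.997 to 6.94 CPM in IL1A+TNF retinas. Their part in the result for Siglech was not tested. Relative to P2ry12 in the same retina, the log2 ratio of Siglech was between -1.48 and -0.15 in PBS retinas and between -4.00 and -2.48 in IL1A+TNF retinas, with no overlap.

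Tmem119 encodes a membrane protein used to tell microglia from infiltrating macrophages. It lay between 1.80 and 4.68 CPM in PBS retinas (median 3.43), between 2.08 and 4.66 CPM after TNF (median 3.37), between 2.43 and 4.67 CPM after IL1A (median 3.87) and between 1.53 and 4.05 CPM after IL1A+TNF (median 2.71). The groups overlapped widely, with 8 of 10 IL1A+TNF retinas below the PBS mean and 2 below the PBS range. The log2 fold change was -0.35 ± 0.12 after IL1A+TNF (FDR = 0.0148), 0.13 ± 0.12 after IL1A (FDR = 0.503) and -0.01 ± 0.13 after TNF (FDR = 0.992). The call after IL1A+TNF ended with total counts in place of TMM (-0.27, FDR = 0.0543), with mouse as a fixed factor (-0.28, FDR = 0.19, 8 mice), without mouse 60212 (-0.28, FDR = 0.0583) and without the retinas with lens genes (-0.31, FDR = 0.0589).

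Sall1 encodes a zinc finger repressor and lay between 2.04 and 4.59 CPM in PBS retinas (median 2.74), between 2.28 and 4.35 CPM after TNF (median 2.703), between 1.88 and 3.31 CPM after IL1A (median 2.98) and between 1.27 and 4.06 CPM after IL1A+TNF (median 1.78). Of the 10 IL1A+TNF retinas, 6 were below every PBS retina and 2 were above the PBS mean. Sall1 was lower after IL1A+TNF (-0.46 ± 0.12, FDR = 9.9e-04), with log2 fold changes of -0.04 ± 0.12 after IL1A (FDR = 0.856) and 0.01 ± 0.13 after TNF (FDR = 0.998). Without the retinas with lens genes the IL1A+TNF value was -0.52 (FDR = 8.3e-05), and with mouse as a fixed factor it was -0.24 (FDR = 0.447). Olfml3 lay between 10.6 and 35.7 CPM in PBS retinas (median 15.8), between 10.7 and 41.1 CPM after TNF (median 15.9), between 15.3 and 36.9 CPM after IL1A (median 17.6) and between 14.2 and 56.1 CPM after IL1A+TNF (median 16.6). In each of the 4 groups the highest retina was one of the 12 with lens genes, and the groups overlapped. No log2 fold change of Olfml3 against PBS passed the test (0.21 ± 0.15 after IL1A+TNF, FDR = 0.227; 0.17 ± 0.15 after IL1A, FDR = 0.508; -0.02 ± 0.17 after TNF, FDR = 0.99).

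**Figure D3:**
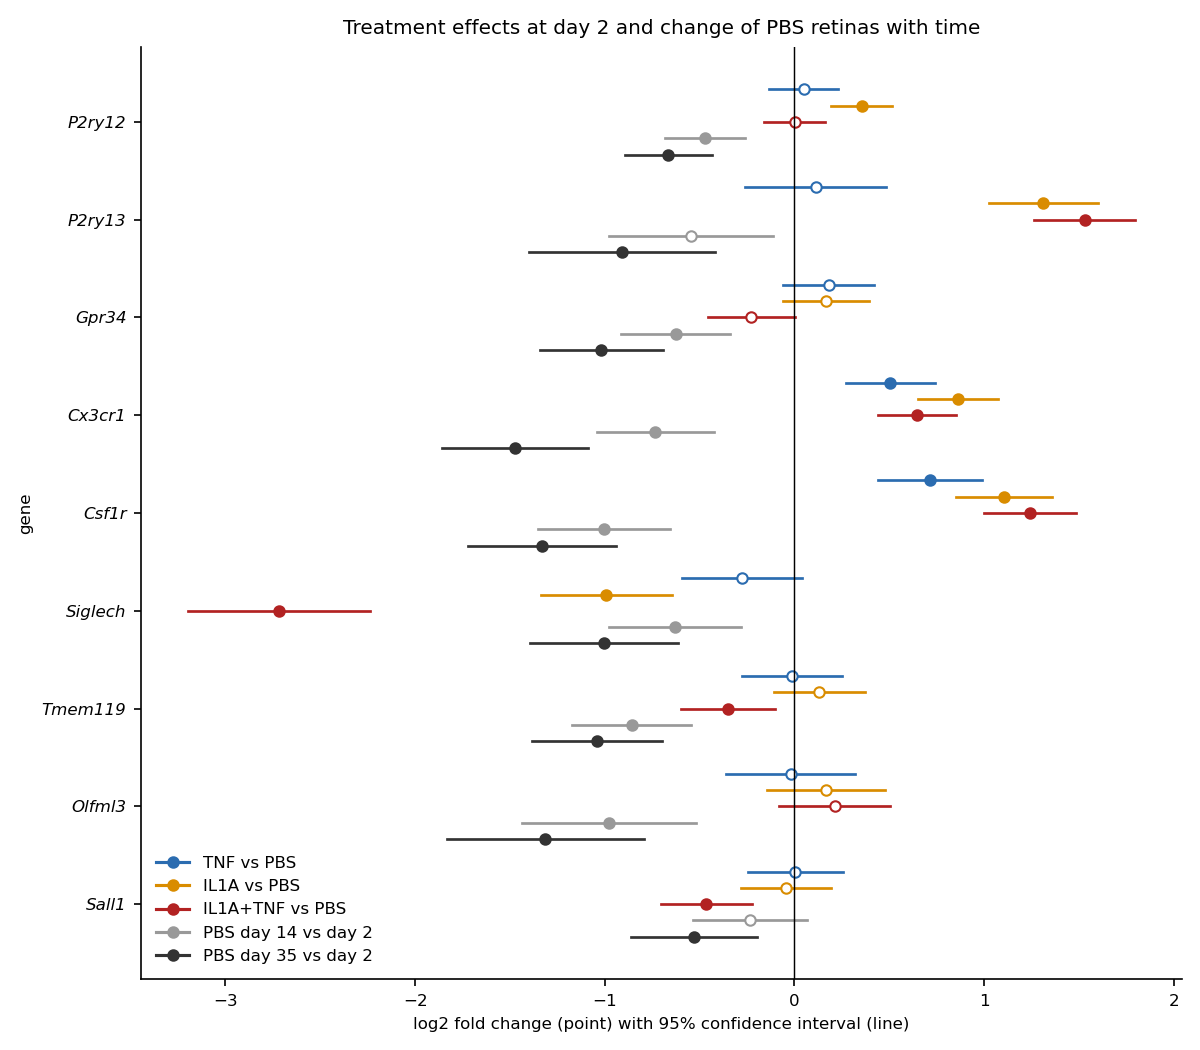
Log2 fold change (point) with its 95% confidence interval (line) of each gene after TNF, IL1A and IL1A+TNF against PBS at day 2, and in PBS retinas of day 14 and day 35 against PBS retinas of day 2; filled points have an FDR under 0.05. The treatments move the genes in different directions, from -2.72 for Siglech to 1.53 for P2ry13 after IL1A+TNF, while every point for the later PBS retinas is below 0.

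Direct comparisons between injections asked what TNF adds to IL1A and the reverse. Between IL1A+TNF and IL1A, 3 of 9 genes were called (10.1% of all genes), all lower with both cytokines. These were Siglech (-1.73 ± 0.28, FDR = 4.3e-05), Tmem119 (-0.48 ± 0.15, FDR = 0.0316) and P2ry12 (-0.35 ± 0.10, FDR = 0.0156), and the last 2 did not pass without the retinas with lens genes (FDR = 0.141 and 0.0568), where Sall1 did (-0.47, FDR = 0.0271). The differences of the other members lay between -0.42 and 0.22. Between IL1A+TNF and TNF, 5 of 9 were called (39.0% of all genes), with P2ry13 (1.42 ± 0.20, FDR = 8.9e-08) and Csf1r (0.53 ± 0.16, FDR = 0.00652) higher and Siglech (-2.44 ± 0.27, FDR = 7.0e-10), Sall1 (-0.47 ± 0.16, FDR = 0.0136) and Gpr34 (-0.41 ± 0.15, FDR = 0.0234) lower with both. Gpr34 had an FDR of 0.083 without the retinas with lens genes. Between IL1A and TNF, 2 of 9 were called (9.08% of all genes), P2ry13 (1.2 ± 0.21, FDR = 1.2e-04) and Siglech (-0.71 ± 0.22, FDR = 0.0262), and Siglech did not pass without the retinas with lens genes (FDR = 0.06).

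Whether the effect of both cytokines equals the sum of their single effects was tested as the departure from additivity on the log2 scale. It was called for 2 of 9 genes (3.6% of all genes). For Siglech the joint change was more negative than the sum by 1.45 (-1.45 ± 0.32, FDR = 0.0061). For Cx3cr1 the departure was -0.72 ± 0.17 (FDR = 0.0107), so that the joint increase was smaller than the sum of the single increases, and this call was lost without the retinas with lens genes (-0.59, FDR = 0.0747). The departures of the other 7 genes lay between -0.58 and 0.10.

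The other genes of the microglial programme were also called in both directions after IL1A+TNF. Of 15 further homeostatic genes, 9 were higher and 2 lower (median log2 fold change 0.62), among them Entpd1 (1.14 ± 0.10), which encodes an ectonucleotidase that breaks down ATP and ADP, and the leukotriene synthase gene Ltc4s (1.70 ± 0.17). The 2 that were lower, named after their values were seen, were Slc2a5 (-1.62), a fructose transporter gene, and Bin1 (-0.26). Of 7 microglial transcription factor genes, 5 were higher and 1 lower (median 0.48), with Irf8 (2.45 ± 0.20) and Spi1 (2.45 ± 0.21), which encode lineage factors of macrophages, higher and Mef2c (-0.84 ± 0.07) lower. Of 8 genes for ligands and signalling partners of the members and for the TGF-beta arm, 6 were higher and 0 lower (median 1.04), led by Csf1 (1.62 ± 0.12), which encodes a ligand of CSF1R, Nrros (1.34 ± 0.10), whose product holds latent TGF-beta1 on microglia, and the adaptor gene Tyrobp (2.62 ± 0.20). After IL1A alone, 9 of the 15 homeostatic genes were higher and 2 lower, and after TNF alone 1 was higher. Over all genes, 24.9% were called higher and 25.5% lower after IL1A+TNF, 12% and 9.45% after IL1A, and 0.614% higher after TNF. The genes named first in each of these lists were among the 3 with the smallest FDR after IL1A+TNF (at most 1.8e-12), beside a median over all genes of -0.02.

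Markers of several other cell types were higher after the same injection, beside 24.9% of all genes called higher and 25.5% called lower. All 10 pan-myeloid genes were higher (median 1.56), with Ptprc at 2.73, Fcer1g at 2.12 and Laptm5 at 1.96, as were 7 of 10 genes of disease-associated microglia (median 0.73), with Itgax at 2.79, Clec7a at 2.30 and Trem2 at 1.73. The summed level of the disease-associated genes lay between 803 and 1889 CPM in IL1A+TNF retinas, inside the PBS range of 518 to 2001 CPM. Of the genes of border macrophages 4 of 5 were higher (F13a1 2.56, Mrc1 1.74, Ms4a7 0.56), of monocytes 7 of 8 (Chil3 3.64, Ccr2 3.32) and of neutrophils 6 of 6 tested (S100a8 3.92, Csf3r 3.79, Cxcr2 3.78). The summed level of the 8 monocyte genes ranged from 16.2 to 70.8 CPM in PBS retinas and from 63.9 to 169 CPM in IL1A+TNF retinas, and that of the 7 neutrophil genes from 2.45 to 130 and from 118 to 751 CPM. The 5 genes of border macrophages summed to between 12.3 and 27.7 CPM and between 30.3 and 46.5 CPM. No gene of these 3 lists had 0 counts in all retinas of either group, but Ly6g, a defining neutrophil gene, had 0 counts in 25 of 31 PBS and 6 of 10 IL1A+TNF retinas. Endothelial genes were higher in 4 of 4 (Cdh5 0.70, Cldn5 0.67, Pecam1 0.60), platelet genes in 2 of 4 (Pf4 2.46, Itga2b 0.61) with 1 lower (Gp9 -0.84, not called without mouse 60579 or mouse 60587), and genes of erythrocytes, fibroblasts and lens were called in 0 of 5, 0 of 5 and 0 of 4. Lower were 3 of 4 genes of the pigment epithelium (Rgr -2.31, Ttr -2.04, Rpe65 -1.78) and 5 of 7 retinal genes (Rcvrn -0.66, Rbpms -0.30). In PBS retinas the correlation with the summed pan-myeloid level was 0.90 for Csf1r, 0.78 for Cx3cr1 and 0.63 for P2ry13. It was 0.47 for P2ry12, 0.44 for Tmem119, 0.39 for Gpr34, 0.19 for Olfml3, -0.11 for Siglech and -0.11 for Sall1. Tmem119, which was lower after IL1A+TNF, thus lay near P2ry12 and Gpr34, which did not pass the test. In the same PBS retinas the correlation with the summed neutrophil genes was 0.73 for Csf1r, 0.65 for P2ry13 and 0.57 for Cx3cr1. With the summed monocyte genes it was 0.72, 0.37 and 0.51. For the other members these correlations lay between -0.33 and 0.27 for neutrophil genes and between -0.31 and 0.31 for monocyte genes. The part of infiltrating cells in the higher Csf1r, Cx3cr1 and P2ry13 was not tested.

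**Figure D4:**
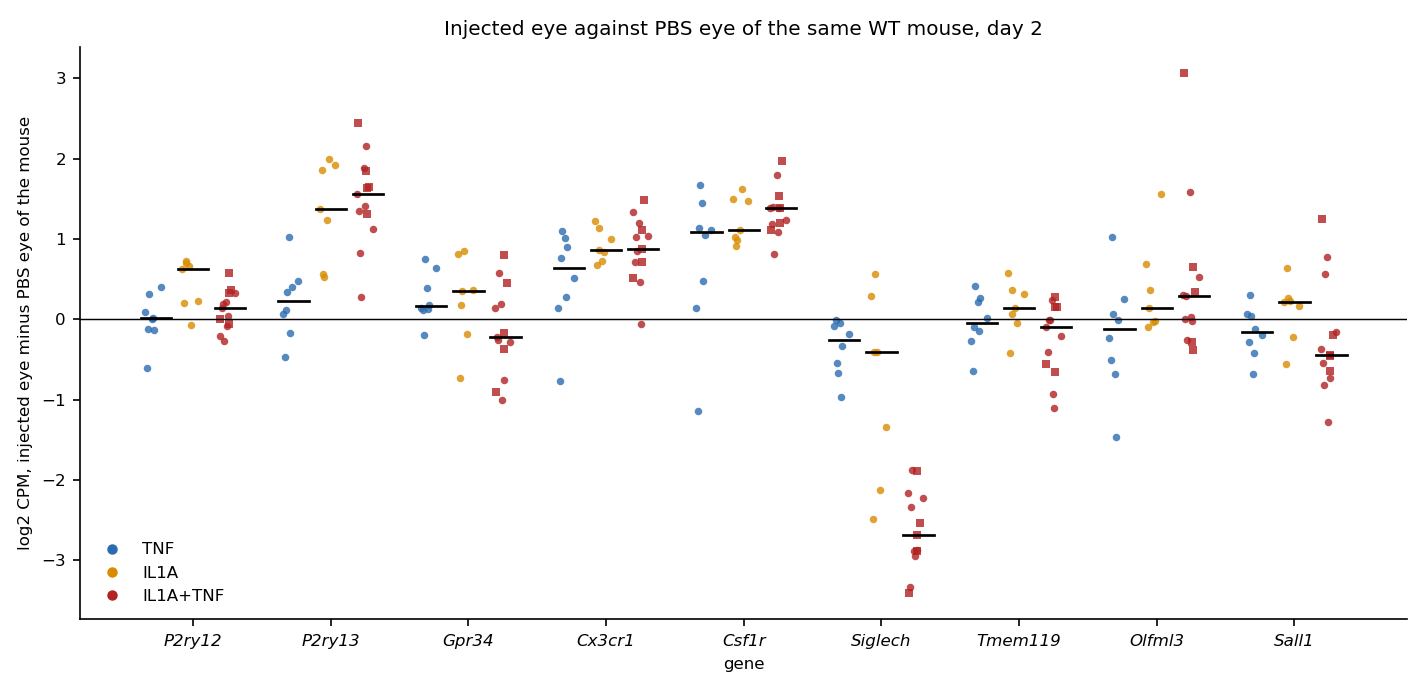
Difference in log2 CPM between the cytokine-injected eye and the PBS eye of the same WT mouse at day 2, for each gene and injection; circles are batch 1, squares are batch 2, and black bars are medians. After IL1A+TNF every mouse lies below 0 for Siglech and above 0 for P2ry13 and Csf1r.

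Comparison of the eyes of single mice gave the same directions for the genes with the largest changes. In the 8 batch 1 mice with an IL1A+TNF and a PBS eye, Siglech was lower in the IL1A+TNF eye in 8 of 8 (median -2.61 on the log2 scale, from -3.33 to -1.88), and P2ry13 (median 1.38) and Csf1r (median 1.31) were higher in 8 of 8. Cx3cr1 was higher in 7 of 8 (median 0.94), Tmem119 lower in 7 of 8 (median -0.15) and Sall1 lower in 6 of 8 (median -0.45). In the 7 mice with an IL1A eye, P2ry13 (median 1.38), Csf1r (1.12) and Cx3cr1 (0.86) were higher in 7 of 7 and P2ry12 in 6 of 7 (0.62), while Siglech was lower in 5 of 7 (median -0.40, from -2.49 to 0.57). In the 8 mice with a TNF eye, Csf1r (median 1.08) and Cx3cr1 (median 0.64) were higher in 7 of 8, and Siglech was lower in 8 of 8 by a small amount (median -0.26, from -0.97 to -0.01). These pairs use the same retinas as the fits above and carry no test of their own.

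At days 14 and 35 only TNF had been injected, and none of the 9 genes passed the test against PBS. At day 14 limma called 0 of 9 members and 0.0% of 18023 genes tested, with 838 genes and 0 members at an unadjusted p under 0.05, and edgeR also called 0 genes. At day 35 it called 0 of 9 members and 0.0% of 17821 genes, with 871 genes and 0 members at an unadjusted p under 0.05, and edgeR called 0 genes. The log2 fold changes of the members lay between -0.20 (Sall1) and 0.21 (Olfml3) at day 14 and between -0.14 (P2ry12) and 0.24 (Siglech) at day 35. At day 14 Csf1r lay between 10.2 and 15.3 CPM in 7 PBS retinas and between 11.5 and 22.8 CPM in 6 TNF retinas, and at day 35 between 8.50 and 12.5 CPM in 6 PBS and between 8.90 and 10.9 CPM in 9 TNF retinas. The groups overlapped on both days. In the 4 mice of day 14 with a TNF and a PBS eye, 3 genes were lower in the TNF eye of 4 of 4, Sall1 (median -0.44 on the log2 scale, from -0.72 to -0.25), Cx3cr1 (median -0.24, from -0.35 to -0.11) and P2ry13 (median -0.16, from -0.22 to -0.12). With mouse as a fixed factor over these mice their FDR was 0.337, 0.361 and 0.717. In the 6 such mice of day 35 no gene was higher or lower in 6 of 6. When the TNF effect itself was compared between days, limma called 0 of 9 members and 0.0% of genes for day 14 against day 2 (759 genes and 1 member under an unadjusted p of 0.05, edgeR 0 genes) and for day 35 against day 2 (511 genes and 1 member, edgeR 0 genes). For Csf1r the effect was lower by 0.58 at day 14 (95% CI -1.09 to -0.07) and by 0.77 at day 35 (95% CI -1.30 to -0.25) than at day 2, with FDR = 0.999 and 1.00, so a loss of the early difference was not shown.

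PBS retinas themselves differed with the day. Against PBS retinas of day 2, 7 of 9 genes were lower at day 14 (18.0% of all genes called) and 9 of 9 at day 35 (32.9% of all genes called), with medians of the 9 of -0.63 and -1.02 beside medians over all genes of 0.01 and 0.00. Cx3cr1 lay between 8.48 and 14.4 CPM at day 2, between 5.77 and 7.73 CPM at day 14 (median 7.15) and between 3.61 and 5.06 CPM at day 35 (median 4.10), so neither later group overlapped with day 2. The log2 fold change of Cx3cr1 was -0.73 ± 0.16 at day 14 (FDR = 3.6e-04) and -1.47 ± 0.19 at day 35 (FDR = 5.3e-09). Csf1r lay between 17.4 and 36.6 CPM at day 2 and at the levels given above on the later days, again with no overlap (-1.0 ± 0.18, FDR = 1.5e-05; -1.33 ± 0.20, FDR = 1.1e-07). The smallest changes were those of Sall1 (-0.23 ± 0.15, FDR = 0.297; -0.53 ± 0.17, FDR = 0.00946) and P2ry12 (-0.47 ± 0.11, FDR = 8.3e-04; -0.66 ± 0.12, FDR = 4.1e-06). P2ry13 passed at day 35 (-0.91 ± 0.25, FDR = 0.00247) and not at day 14 (-0.55 ± 0.22, FDR = 0.0678). In the order day 14 and day 35, the values were -0.62 and -1.02 for Gpr34, -0.63 and -1.01 for Siglech, -0.86 and -1.04 for Tmem119, and -0.98 and -1.31 for Olfml3, each with an FDR of at most 0.00643. Without the retinas with lens genes 8 of 9 and 9 of 9 were lower, while the counts of all genes called moved by no more than 1.5 times. Over the same retinas, 10 of 10 pan-myeloid genes were lower on both days (medians -1.29 and -1.89), with their summed level falling from between 60.0 and 181 CPM at day 2 to between 26.0 and 33.4 CPM at day 35. Their part in the result was not tested.

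Day 2 PBS retinas came from mice whose other eye had received different cytokines, whereas among the later PBS retinas the other eye had received TNF in all 6 of day 35 and in 4 of 7 of day 14, with both eyes of 1 mouse given PBS and 1 other eye not sequenced. In the 8 day 2 PBS retinas whose other eye received TNF, Csf1r lay between 19.8 and 33.8 CPM (median 27.1) and Cx3cr1 between 8.84 and 14.4 CPM (median 12.1). Compared with these 8 alone, the day 35 PBS retinas did not overlap for 8 of 9 genes and the day 14 PBS retinas for 5 of 9, against 3 and 3 of 9 compared with all 31. A part of 8 retinas cannot span a wider range than all 31, so more genes without overlap can follow from that alone. The share of all genes without overlap was not counted, so these counts are a description of the members. The time since injection, the age at collection and any difference in handling between the days cannot be told apart.

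The Sarm1-/- experiment asked whether these responses need Sarm1, which encodes an enzyme that drives axon degeneration, and Sarm1-/- retinas were in batch 2 only. In the fit over 81 day 2 retinas of both batches, with batch as a term, IL1A+TNF changed the same 6 genes in WT retinas in the same directions as in batch 1 (6 of 9, against 54.8% of all genes called). This fit includes the 58 day 2 retinas of batch 1, so the 2 results are not independent. With edgeR 5 of 9 were called, without Sall1 (-0.30, FDR = 0.0906), and Tmem119 did not pass without the retinas with lens genes (-0.24, FDR = 0.0835). In Sarm1-/- retinas 3 of 9 were called (43.5% of all genes), P2ry13 (1.89 ± 0.25, FDR = 4.6e-08) and Csf1r (0.88 ± 0.18, FDR = 4.8e-05) higher and Siglech (-2.71 ± 0.31, FDR = 1.2e-09) lower. P2ry13 lay between 1.28 and 3.47 CPM in 6 PBS and between 4.37 and 14.7 CPM in 6 IL1A+TNF retinas, Csf1r between 22.6 and 32.7 and between 34.4 and 56.5 CPM, and Siglech between 1.89 and 3.19 and between 0.0708 and 1.11 CPM. The groups did not overlap for any of the 3. Tmem119 (-0.41 ± 0.19, FDR = 0.0668) and Sall1 (-0.41 ± 0.25, FDR = 0.188) did not pass, and Sall1 passed without the retinas with lens genes (-0.53, FDR = 0.0193). The differences of P2ry12 (0.15 ± 0.12), Gpr34 (-0.20 ± 0.21) and Olfml3 (-0.03 ± 0.38) did not pass either.

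For Cx3cr1 a difference between the genotypes in the response to IL1A+TNF was called in the fit over both batches. In Sarm1-/- retinas it lay between 11.2 and 16.3 CPM after PBS (median 12.7) and between 5.72 and 22.7 CPM after IL1A+TNF (median 15.2), and in WT retinas of batch 2 at 10.6, 12.6, 14, 14.7 and 15.8 CPM after PBS and between 18.0 and 30.4 CPM after IL1A+TNF (median 26.5). The WT groups did not overlap, while among 6 Sarm1-/- IL1A+TNF retinas 3 were above and 2 below the range of Sarm1-/- PBS retinas. Between the eyes of Sarm1-/- mice, Cx3cr1 differed by 0.22, 0.52 and 0.94 (log2) in males and by -1.24, -0.865 and 0.03 in females. It differed by 0.52, 0.88 and 1.49 in males and by 0.71 and 1.11 in females of WT batch 2. In WT batch 1 it differed by 1.02 to 1.33 in males and by -0.06 to 0.85 in females. Whether the response differs by sex was not tested. The log2 fold change in Sarm1-/- retinas was -0.01 ± 0.19 (95% CI -0.39 to 0.37; FDR = 0.966), against 0.74 ± 0.11 (FDR = 1.3e-08) in WT retinas in the same fit over both batches. Genotype by treatment was called for Cx3cr1 alone, 1 of 9 genes (8.75% of all genes; -0.75 ± 0.22, FDR = 0.0219). That call was lost with edgeR (-0.63, FDR = 0.123), with batch 2 alone (-0.90, FDR = 0.814) and without the retinas with lens genes (-0.62, FDR = 0.158), where 16 genes in all were called against 1763 before. Between IL1A+TNF retinas of the genotypes, 2 of 9 genes were called (14.8% of all genes), both lower in Sarm1-/- retinas, Cx3cr1 (-0.87 ± 0.17, FDR = 0.00104) and Csf1r (-0.63 ± 0.16, FDR = 0.00598). With batch 2 alone Csf1r passed (-0.69, FDR = 0.0164) and Cx3cr1 did not (-0.89, FDR = 0.101), and within batch 2 Csf1r did not pass without mouse 61561 (FDR = 0.0586) or mouse 61719 (FDR = 0.0557). Csf1r lay between 34.4 and 56.5 CPM in Sarm1-/- and between 60.8 and 93.6 CPM in WT IL1A+TNF retinas of batch 2, with no overlap.

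**Figure D5:**
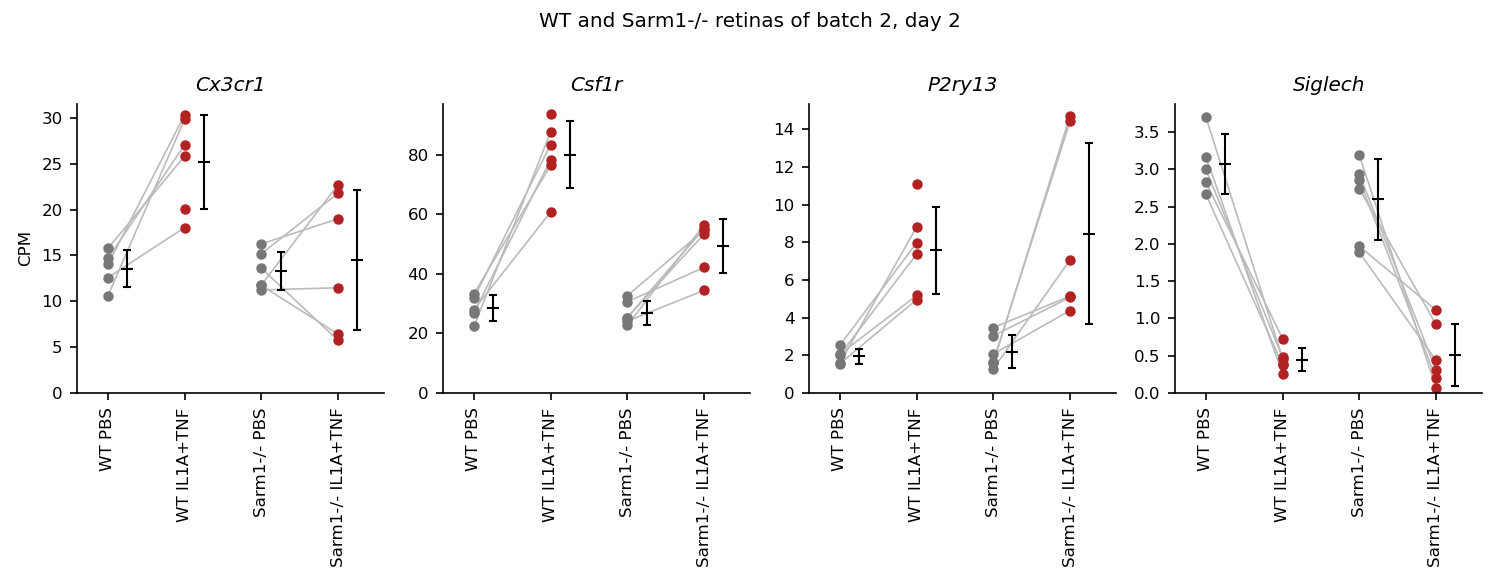
Level (CPM) of Cx3cr1, Csf1r, P2ry13 and Siglech in each batch 2 retina by genotype and injection; grey lines join the eyes of a mouse, and bars are the mean with SD (5 WT PBS retinas, 6 in each other group). Cx3cr1 rises in each WT mouse and in 4 of 6 Sarm1-/- mice, and Siglech falls in every mouse of both genotypes.

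Pan-myeloid genes moved in the same direction as Cx3cr1 and Csf1r between the genotypes. In the fit over both batches, 6 of 10 were lower in Sarm1-/- than in WT IL1A+TNF retinas (median -0.63), against 10.8% of all genes. Their summed level lay between 222 and 516 CPM in Sarm1-/- and between 417 and 672 CPM in WT retinas of batch 2. Of 8 genes for ligands and partners, 5 were lower (median -0.48), and of 15 further homeostatic genes 5 (median -0.10), beside a median over all genes of 0.00. Of 8 monocyte genes and 6 neutrophil genes 0 were called in that comparison. The lists were not counted with batch 2 alone, where 129 genes in all were called, against 2988 in the fit over both batches. The part of the genes of these lists in the result was not tested. In PBS retinas the genotypes differed in 0 of 9 genes by limma (0.0397% of all genes called), with 1 of 9 under an unadjusted p of 0.05 (P2ry12, -0.22 ± 0.11), and in 0 of 9 by edgeR.

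Within batch 2 alone, IL1A+TNF against PBS in WT retinas called 4 of 9 genes (20.9% of all genes). These were P2ry13 (1.85 ± 0.37, FDR = 0.00133), Csf1r (1.48 ± 0.15, FDR = 1.6e-06), Cx3cr1 (0.92 ± 0.27, FDR = 0.02) and Siglech (-2.81 ± 0.38, FDR = 3.3e-05). The call of Cx3cr1 ended without mouse 61722 (0.79, FDR = 0.0791) and without mouse 62224 (0.93, FDR = 0.0583), and P2ry12 (0.28 ± 0.11, FDR = 0.077) passed without mouse 61720 (0.38, FDR = 0.0429). All 6 IL1A+TNF retinas were outside the range of the 5 PBS retinas for these 4 genes. The genes were called in the same retinas, and the share of all genes without overlap was not counted, so this is a description only. Tmem119 (-0.15 ± 0.22, FDR = 0.645) and Sall1 (-0.14 ± 0.41, FDR = 0.827) did not pass, and 5 of 6 IL1A+TNF retinas were below every PBS retina for Sall1, with 1 retina with lens genes at 6.74 CPM above them. No difference between the batches in the effect of IL1A+TNF was called for any member. Limma called 0 of 9 and 0.0% of 20328 genes, with 523 genes and 0 members under an unadjusted p of 0.05, and edgeR called 0 genes. With 5 PBS and 6 IL1A+TNF retinas of WT mice in batch 2, equal effects were not shown by this. Among the 58 WT retinas of day 2 in batch 1, male and female retinas differed in 0 of 9 members by limma (0.363% of all genes). Under an unadjusted p of 0.05 there was 1 of 9 (P2ry13, -0.24 ± 0.11, lower in males), and edgeR and DESeq2 called 0 of 9. This compares levels over all injections, and whether the response to an injection differs by sex was not tested.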

How the data were processed

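PolyA RNA of 109 mouse retinas was sequenced. The authors aligned reads with STAR (2.7.9a) to mm10 and counted them per gene with featureCounts of Subread (2.0.1), and the deposited table holds raw counts. The strand setting and the annotation release are not given in the sources used here. Groups follow the labels for genotype, treatment, time and batch, and the time label was used for the day of collection.

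From the counts, TMM factors (edgeR 4.0.16), a filter on low counts (minimum count 10 at the smallest group size, minimum total 15) and limma (3.58.1, R 4.3.3) on voom weights gave log2 fold changes with SE and FDR, the Benjamini-Hochberg adjusted p over all genes tested, with 0.05 as the threshold. Sex was a covariate, batch too for Sarm1-/- comparisons, and mouse was a random block, estimated in 2 rounds (statmod 1.5.0), because many mice gave both eyes (correlation within mice 0.0515 at day 2). Correlations used log2 CPM with a prior count of 2. The test was checked on simulated data. Alternatives were other filters, scalings, edgeR, DESeq2 (1.42.0), no block, mouse as a fixed factor, no sex term, batch 2 alone and leaving out each mouse. Leaving out the retinas with lens genes was chosen after seeing the data, as were edgeR and no block for comparisons of days and of batches. The members and all gene lists were chosen with earlier results of these data known. The genes named are the members in each comparison, of each list the 3 with the smallest FDR after IL1A+TNF at day 2 or all where 5 or fewer were called, except some that are not reported here, and the 3 genes most correlated with each member in PBS retinas.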

Additional observations from a re-analysis of the deposited data

Results flagged for a closer look

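Of 99 combinations of a gene and a group of 4 to 10 retinas, 17 held a retina set apart from the rest of its group by Dixon's test, where chance alone flags about 1 in 20, and 12 of the 17 were retinas with lens genes. For Olfml3 these were the highest retinas after TNF at day 14 (49.07 CPM), TNF (41.09 CPM), IL1A (36.92 CPM) and IL1A+TNF (56.12 CPM) at day 2, WT IL1A+TNF in batch 2 (132.6 CPM), Sarm1-/- PBS (129.4 CPM) and Sarm1-/- IL1A+TNF (157.2 CPM), and the lowest TNF retina of day 35 (5.753 CPM). For Sall1 they were the highest retinas after TNF at day 14 (5.64 CPM) and day 2 (4.35 CPM), in Sarm1-/- PBS (6.346 CPM) and in WT IL1A+TNF of batch 2 (6.736 CPM).

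Gpr34 had single high retinas after TNF (4.397 CPM) and IL1A+TNF (4.638 CPM) at day 2 and a low retina in Sarm1-/- PBS (2.307 CPM). Csf1r had 1 high TNF retina at day 14 (22.78 CPM), the same retina that was highest for Olfml3 and Sall1 in that group. Siglech had 1 high PBS retina at day 14 (2.303 CPM).

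Effects passed 3 tests of a difference between groups. The effects of IL1A and TNF together departed from their sum by -0.7191 for Cx3cr1 and by -1.4505 for Siglech on the log2 scale, and the effect of IL1A+TNF on Cx3cr1 differed between the genotypes by -0.752. The call for Cx3cr1 additivity ended without the retinas with lens genes (FDR = 0.0747), and that for Cx3cr1 between the genotypes with edgeR (FDR = 0.123), with batch 2 alone (FDR = 0.814) and without the retinas with lens genes (FDR = 0.158), while Siglech passed without those retinas (-1.42, FDR = 0.0335).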

How the results depend on the processing

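No member called in a comparison changed direction under any alternative that was run. Counts of members called that moved by over 1.5 times come first. For TNF against PBS the count of 2 became 0 with the replicate block of mouse as a fixed factor and 0 without the retinas with lens genes, and 0 to 2 without single mice. With IL1A against TNF it went from 2 to 4 with total counts and to 1 without the retinas with lens genes, and for additivity from 2 to 4 with DESeq2 and to 1 without those retinas. For genotype by treatment the count of 1 became 0 with edgeR, with batch 2 alone and without the retinas with lens genes, and for Sarm1-/- against WT after IL1A+TNF the count of 2 became 1 with batch 2 alone. Single mice of the Sarm1-/- comparisons were left out of batch 2 alone, so these values stand against batch 2 alone, where the counts stayed at 0 for genotype by treatment and ran from 0 to 1 for Sarm1-/- against WT after IL1A+TNF. Smaller moves without single mice were 6 to between 5 and 7 after IL1A+TNF at day 2, 3 to between 3 and 4 in Sarm1-/- retinas (Tmem119 -0.57, FDR = 0.0451 in batch 2 without mouse 61561) and 4 to between 3 and 5 in WT retinas of batch 2. The fixed block also left 4 of 6 members called after IL1A+TNF and 4 of 5 after IL1A. Genes called in all moved by over 1.5 times for TNF (128, with edgeR 242, DESeq2 268, fixed block 0, lens retinas left out 9), IL1A (4193, fixed block 1244), IL1A+TNF against IL1A (1968, lens retinas left out 1094), additivity (703, no filter 422, DESeq2 1118, lens retinas left out 254), TNF at day 35 (0, fixed block 8), Sarm1-/- against WT after PBS (8, batch 2 alone 2) and after IL1A+TNF (2988, edgeR 1195, batch 2 alone 129, lens retinas left out 493) and genotype by treatment (1763, edgeR 181, batch 2 alone 0, lens retinas left out 16). The alternatives that drop retinas or mice test fewer samples, and otherwise the cause was not tested. Sign changes, all in values that were not called, were these (log2). With a filter of 1 CPM the sign changed for TNF against PBS Sall1 (-0.0031). With total counts the sign changed for TNF against PBS Sall1 (-0.0017), IL1A+TNF against TNF P2ry12 (0.0326), IL1A against TNF Gpr34 (0.0317) and Sall1 (0.0013). With edgeR the sign changed for IL1A+TNF against PBS P2ry12 (-0.009), TNF against PBS Olfml3 (0.0447), TNF against PBS, day 14 Cx3cr1 (0.121), TNF against PBS, day 35 Tmem119 (0.0112), IL1A+TNF against PBS, Sarm1-/- Cx3cr1 (0.1077) and Olfml3 (0.3377), Sarm1-/- against WT, PBS P2ry13 (0.0316), Sarm1-/- against WT, IL1A+TNF Siglech (0.1034) and Olfml3 (0.4285), genotype by treatment Gpr34 (0.1214) and Sall1 (0.2594), TNF effect at day 14 against day 2 Sall1 (0.0924), TNF effect at day 35 against day 2 Olfml3 (-0.0176). With DESeq2 the sign changed for IL1A+TNF against PBS P2ry12 (-0.0045), TNF against PBS Olfml3 (0.0396). With mouse as a fixed factor (the replicate block) the sign changed for TNF against PBS Sall1 (-0.16), IL1A against PBS Sall1 (0.123), TNF against PBS, day 14 Gpr34 (-0.0058) and Siglech (-0.1877) and Tmem119 (-0.0681) and Olfml3 (-0.1268). With no replicate block the sign changed for TNF against PBS, day 14 Cx3cr1 (0.048). With batch 2 alone the sign changed for IL1A+TNF against PBS, Sarm1-/- Cx3cr1 (0.0175), Sarm1-/- against WT, PBS P2ry13 (0.0571) and Cx3cr1 (0.0149) and Tmem119 (0.0387), Sarm1-/- against WT, IL1A+TNF Sall1 (-0.0823), genotype by treatment P2ry12 (-0.1391). With the retinas with lens genes left out the sign changed for IL1A+TNF against PBS P2ry12 (-0.006), TNF against PBS P2ry13 (-0.0069) and Sall1 (-0.0592), IL1A+TNF against IL1A Olfml3 (-0.0303), IL1A against TNF Sall1 (0.0071), male against female Olfml3 (-0.0711), TNF against PBS, day 14 P2ry12 (-0.0087) and Siglech (-0.0523) and Olfml3 (-0.0872), TNF effect at day 35 against day 2 P2ry13 (0.0667), IL1A+TNF against PBS, Sarm1-/- Gpr34 (0.0003) and Cx3cr1 (0.1777) and Olfml3 (0.012), Sarm1-/- against WT, PBS Olfml3 (-0.0838) and Sall1 (-0.0595), Sarm1-/- against WT, IL1A+TNF Sall1 (-0.1177), genotype by treatment Gpr34 (0.0985) and Siglech (-0.0047), WT IL1A+TNF in batch 2 Gpr34 (0.0317). Leaving out 1 mouse at a time (from batch 2 alone for Sarm1-/- comparisons) changed the sign for TNF against PBS P2ry12 (-0.0285 to 0.1051) and Tmem119 (-0.073 to 0.0554) and Olfml3 (-0.2251 to 0.0609) and Sall1 (-0.0902 to 0.0348), IL1A against PBS Sall1 (-0.0868 to 0.017), IL1A+TNF against PBS P2ry12 (-0.0079 to 0.0125), IL1A+TNF against PBS, Sarm1-/- Gpr34 (-0.4492 to 0.0352) and Cx3cr1 (-0.1975 to 0.2162) and Olfml3 (-0.6787 to 0.679), Sarm1-/- against WT, PBS P2ry13 (-0.1314 to 0.2011) and Cx3cr1 (-0.0909 to 0.1594) and Tmem119 (-0.0282 to 0.1909) and Olfml3 (-0.1097 to 0.6956) and Sall1 (-0.0315 to 0.2819), Sarm1-/- against WT, IL1A+TNF P2ry13 (-0.0889 to 0.2077) and Siglech (-0.5545 to 0.2134) and Olfml3 (-0.7836 to 0.2564) and Sall1 (-0.4316 to 0.1659), genotype by treatment P2ry12 (-0.238 to -0.0706) and P2ry13 (-0.2695 to 0.3086) and Gpr34 (-0.3835 to 0.1) and Siglech (-0.338 to 0.5565) and Olfml3 (-1.3717 to 0.1075) and Sall1 (-0.6346 to 0.0645), WT IL1A+TNF in batch 2 Gpr34 (-0.2378 to 0.1232) and Tmem119 (-0.2327 to 0.0025).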
